A study of Mus musculus with 14 samples.

Results

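CpG-poor megabase windows were the 627 stretches of 1 Mb on the autosomes in which 50 to 200 cytosine positions were read in all 10 bisulfite libraries. The mouse autosomes were divided from base 1 of build mm9, and each position was 1 CpG cytosine on 1 strand. The windows were 26.0% of the 2415 windows that held any shared position, yet they held only 68767 of the 1307867 shared positions, or 5.26%. They were set against 389 CpG-dense windows with more than 1000 shared positions. The median was 101 positions in a CpG-poor and 1412 in a CpG-dense window. The level of a window was the percent of its reads that were methylated, summed over its positions, so deeply read positions weigh more.

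The libraries came from tail fibroblasts labelled AID-null or wildtype. Methylated cytosines were counted by RRBS, bisulfite sequencing of the short fragments that a restriction enzyme frees. Each genotype had 1 fibroblast library, 1 library of cells reprogrammed in bulk for 3 weeks with Oct4, Sox2, Klf4 and cMyc, and 3 libraries of clones picked at 2 weeks and collected after 3. RNA libraries, 1 per genotype, existed for fibroblasts and 3-week cultures and not for clones. The labels give no strain, age, null allele or number of animals, nor how many animals or cultures the clones stem from, so tests between clones measure only the spread between these clones.

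In mammals, methylation of CpG is copied after replication by Dnmt1 with Uhrf1, set anew by Dnmt3a and Dnmt3b with the cofactor Dnmt3l, and oxidised by Tet enzymes. Clusters of CpG, called CpG islands, are mostly unmethylated, whereas isolated CpG are mostly methylated. Megabase regions with few CpG tend to hold few genes, to replicate late and to lie at the nuclear lamina, and in many cultured cells they are partially methylated. RRBS favours CpG-rich fragments, so such regions are sampled thinly, and a window here stands for the few fragments that were read in it.

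Some properties of the libraries touch the results. AID-null here means the libraries so labelled. The 5 AID-null RRBS libraries held 506 to 648 positions on the Y chromosome and the 5 wildtype libraries 27 to 48, so genotype and sex chromosomes cannot be told apart. All 10 fibroblast marker genes were above 1 FPKM in both fibroblast libraries. In the 3-week cultures 8 pluripotency genes summed to 6682 FPKM in AID-null and 6838 FPKM in wildtype cells. Of these sums Dppa5a made up 3264 FPKM in AID-null and 3160 FPKM in wildtype cells. Tdgf1, Utf1 and Fgf4 were also higher in the AID-null culture. Nanog, Zfp42, Esrrb and Dppa4 were lower there, with Esrrb at 174 FPKM in AID-null and 414 FPKM in wildtype cells. Total coverage was 222945430 to 296572452 reads over positions per library. In CpG-poor windows the smallest number of reads in a window was 3484, and the widest 95% Wilson interval reached 1.57 points to each side, which covers counting error only.

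The clones did not form like groups in their coverage. At 84 positions, chosen after the data were seen, the share of reads was at least 8-fold higher in AID-null clone 3 and all 3 wildtype clones than in every other library. At 138 positions it was at least 8-fold lower in these 4 libraries, 46 of them in CpG-poor windows. Of the 84 higher positions, 43 lay in 19 CpG-poor windows. These 43 took 6.03% of the CpG-poor reads in AID-null clone 3 and 5.66% to 6.18% in wildtype clones, against 0.0847% in AID-null clone 2 and 0.0918% in AID-null clone 1. Over the CpG-poor windows the level of AID-null clone 3 correlated with the wildtype clones at r = 0.984 to 0.987 and with AID-null clones 1 and 2 at 0.973 and 0.970 (a description over 627 windows). Over all 1307867 shared positions the likeness in coverage was less clear, with the log2 share of reads of AID-null clone 3 correlating with wildtype clones 1 to 3 at r = 0.749, 0.633 and 0.672 and with AID-null clones 1 and 2 at 0.616 and 0.642. On the Y chromosome AID-null clone 3 had 648 positions, near the 555 and 577 of AID-null clones 1 and 2 and far from the 43 to 48 of the wildtype clones, as its label has it. The part of a batch or of a mixed library in its likeness to the wildtype clones was not tested. Comparisons of clones are therefore also given with high-coverage positions left out, with positions weighted equally, and for AID-null clone 3 alone. In 24 CpG-poor windows a single position held at least 20% of reads in some library. In the window chr2:98000001-99000000 it held 74.2% to 84.1% of them, and that window took 9.82% to 18.9% of all CpG-poor reads, so levels below are medians over windows and not pooled reads.

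The CpG-poor windows were more methylated than the CpG-dense ones in each of the 10 libraries. In fibroblasts the median level of CpG-poor windows was 61.6% in AID-null and 61.5% in wildtype cells, against 28.8% and 26.1% in the CpG-dense windows of the AID-null and wildtype libraries. At 3 weeks the CpG-poor median was 53.2% in the AID-null culture and 46.4% in the wildtype culture, and the CpG-dense median 22.7% in the AID-null culture and 21.5% in the wildtype culture. AID-null clones 1 to 3 had CpG-poor medians of 52.5%, 48.4% and 57.4%, and wildtype clones 1 to 3 had 49.7%, 50.8% and 50.9%. The values of the wildtype clones lay inside the range of the AID-null clones, so the groups overlapped. Their CpG-dense medians were 18.5%, 17.5% and 21.7% in AID-null and 19.9%, 20.8% and 21.0% in wildtype clones.

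**Figure D1:**
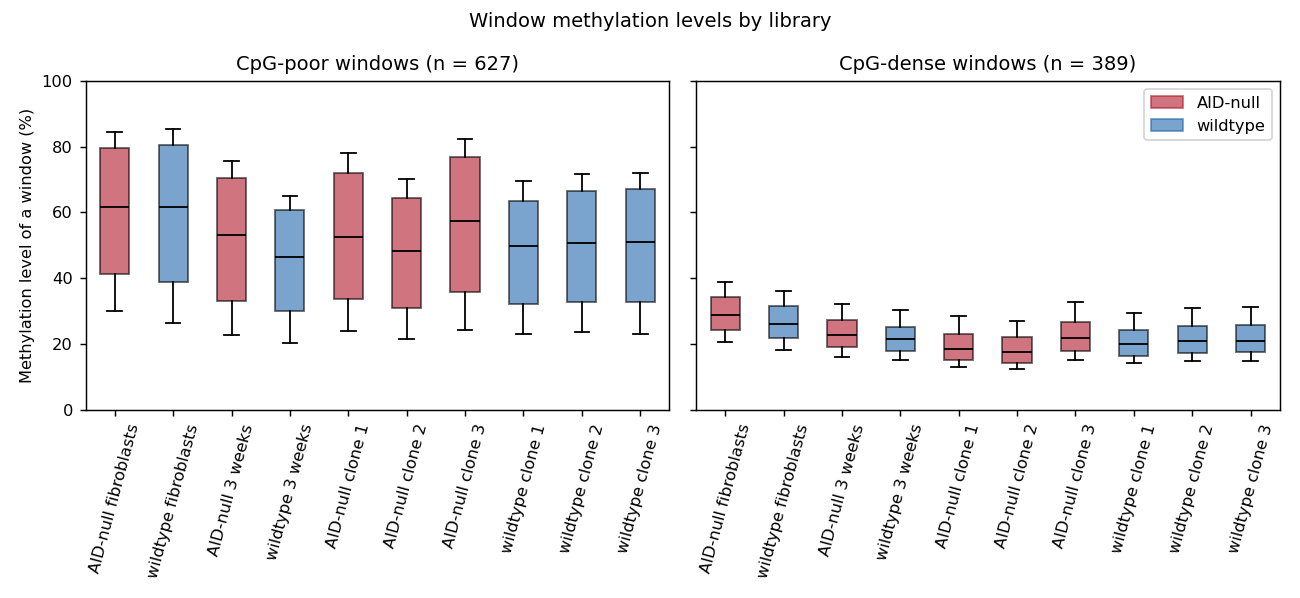
Methylation level of windows (vertical axis, percent) in each of the 10 libraries, for CpG-poor windows on the left and CpG-dense windows on the right. Boxes span the quartiles with the median as a line and whiskers reach the 10th and 90th percentiles over windows; the CpG-poor medians run from 46.4% to 61.6% and the CpG-dense medians from 17.5% to 28.8%.

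The CpG-poor windows also varied far more among themselves. Their levels spanned 10.3% to 90.8% in AID-null and 9.22% to 91.4% in wildtype fibroblasts, with an SD between windows of 21.3 and 23.0 points in the AID-null and wildtype libraries, against 7.35 and 7.22 points in CpG-dense windows. A level of at least 70% was found in 266 of 627 windows in AID-null and 264 in wildtype fibroblasts, and in 0 of 389 CpG-dense windows of either. At 3 weeks 171 CpG-poor windows of the AID-null culture were still at 70% or above, against 4 of the wildtype culture. The number was 180, 67 and 240 in AID-null clones 1 to 3 and 53, 90 and 102 in wildtype clones 1 to 3. Levels of at least 80%, found in 151 AID-null and 164 wildtype fibroblast windows, were found at 3 weeks in 8 windows of the AID-null culture and in 0 of the wildtype culture. AID-null clone 3 had 110 such windows, and the other clones had 44 (AID-null clone 1), 3 (AID-null clone 2), 1, 2 and 2 (wildtype clones 1 to 3).

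High and low CpG-poor windows differed in how their positions were spaced. Each window was cut into 1-kb tiles, and a tile with at least 20 shared positions, the density of a CpG island as RRBS reads it, was called dense. In 330 of the 627 CpG-poor windows there was no dense tile, whereas each of the 389 CpG-dense windows had positions in them, at a median share of 53.0% of its positions. Across the 627 windows the level correlated with the share of positions in dense tiles with Pearson's r between -0.84 and -0.83 in every library. This is a description across windows, which share libraries and base composition. The windows without a dense tile had a median level of 78.6% in AID-null and 79.4% in wildtype fibroblasts. The 83 windows with over 50% of positions in dense tiles had medians of 30.4% in AID-null and 26.4% in wildtype fibroblasts.

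The number of positions followed the same order. Windows of 50 to 99 positions (307 windows, 254 of them without a dense tile) had fibroblast medians of 77.8% in AID-null and 78.7% in wildtype cells, and windows of 150 to 200 positions (147 windows, 15 without a dense tile) had 41.4% in AID-null and 41.1% in wildtype cells. At the lower edge of the rule, windows of 50 to 59 positions had medians of 79.8% in AID-null and 80.8% in wildtype fibroblasts, and windows of 40 to 49 positions, just outside it, had 78.9% and 79.7%. At the upper edge, windows of 191 to 200 positions had 35.0% in AID-null and 33.2% in wildtype fibroblasts, and windows of 201 to 210 positions, just outside, had 39.2% and 36.7%.

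CpG-poor windows lay on all 19 autosomes, from 10 windows on chromosome 19 to 58 on chromosome 1. They made up 15.6% of the windows of chromosome 9 and 35.7% of those of chromosome 3. Of the 627, 402 had a CpG-poor neighbour, and they formed 371 runs. The longest run was 8 windows, chr5:80000001-88000000. Within it, fibroblast levels ranged from 21.2% to 83.8% in AID-null and from 20.8% to 84.7% in wildtype cells. The 4 windows without a dense tile were the 4 highest in both fibroblast libraries, at 75.1% to 83.8% in AID-null and 75.7% to 84.7% in wildtype cells. Neighbouring CpG-poor windows could thus differ widely, with chr5:83000001-84000000 at 83.4% in AID-null and 83.4% in wildtype fibroblasts beside chr5:84000001-85000000 at 21.2% and 20.8%.

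The extremes of the fibroblast libraries showed the same contrast. The highest windows by the mean of both libraries were chr12:95000001-96000000, at 90.8% in AID-null and 91.4% in wildtype fibroblasts, and chr13:27000001-28000000, at 90.8% and 91.3%. Neither has a dense tile. The lowest were chr3:125000001-126000000, at 10.3% in AID-null and 9.91% in wildtype fibroblasts, and chr14:112000001-113000000, at 11.2% and 9.27%. In these 62.5% and 74.0% of positions lay in dense tiles. Both low windows stayed between 6.61% and 11.5% in all clones and 3-week cultures of both genotypes.

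The next comparison asked how methylation changed over 3 weeks of reprogramming. CpG-poor windows stood lower at 3 weeks than in fibroblasts in both genotypes. In the AID-null culture the median change was -7.74 points, with 207 of 627 windows at least 10 points lower and 1 higher. Over all 2226 windows with at least 50 positions 17.2% were that much lower and 0.0449% higher. In the wildtype culture the median change was -14.7 points, with 405 windows at least 10 points lower and 4 higher, where 28.3% of all windows were lower and 0.225% higher. CpG-dense windows changed by a median of -6.17 points in the AID-null culture and -4.57 points in the wildtype culture. With 1 library per group these differences have no replicate check and no test. With positions weighted equally 101 CpG-poor windows of the AID-null culture passed 10 points in either direction, and the CpG-poor medians were -5.51 points in the AID-null culture and -14.1 points in the wildtype culture. The CpG-dense medians were then -4.72 points in the AID-null culture and -8.78 points in the wildtype culture, so the order of the genotypes in CpG-dense windows depended on the weighting and that in CpG-poor windows did not.

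**Figure D2:**
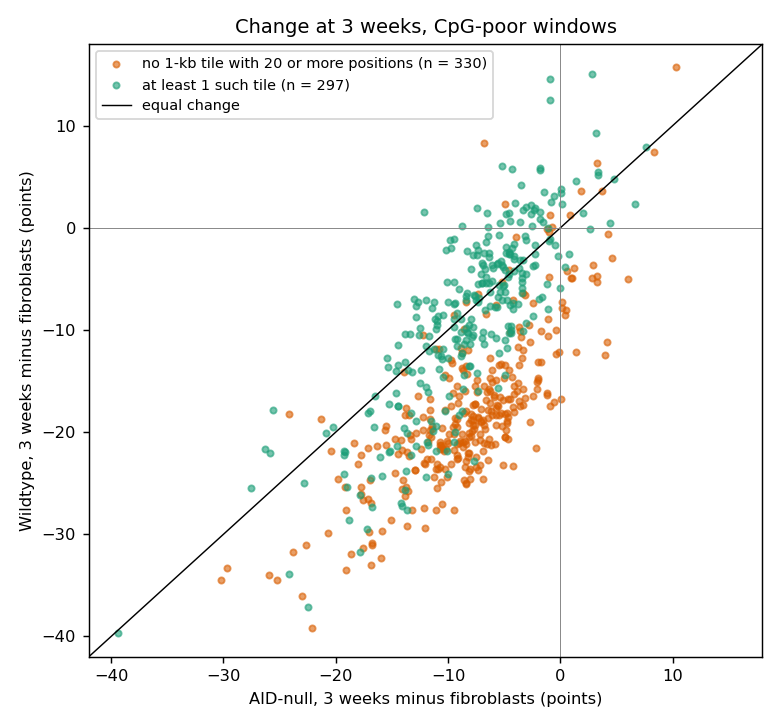
Change in methylation from fibroblasts to 3 weeks in each of the 627 CpG-poor windows, in percentage points, AID-null on the horizontal and wildtype on the vertical axis, with the line of equal change. The 330 windows without a dense 1-kb tile (orange) lie mostly below the line, with medians of -7.99 points in AID-null and -18.8 points in wildtype cells, and the other 297 (green) lie closer to it.

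By reads, the median wildtype change of a window followed the share of its positions in dense tiles and the AID-null change hardly did. In the 330 windows without a dense tile the median change at 3 weeks was -7.99 points in the AID-null culture and -18.8 points in the wildtype culture. In the 55 windows with a share above 0 and up to 25% it was -9.36 points in AID-null and -14.2 points in wildtype cells. In the 159 windows with over 25% and up to 50% of positions in dense tiles it was -7.74 points in the AID-null culture and -7.65 points in the wildtype culture. In the 83 windows above 50% it was -6.29 points in the AID-null culture and -4.48 points in the wildtype culture. The wildtype level of the windows without a dense tile was 60.0% at 3 weeks, against 79.4% in fibroblasts, and the AID-null level was 70.0% at 3 weeks, against 78.6% in fibroblasts. With each position counted once, the changes of both genotypes were smaller in dense tiles. Among CpG-poor windows the AID-null change was -6.35 points in tiles of 1 to 4 positions and -1.93 points in tiles of 20 to 39. The wildtype change was -18.1 and -2.34 points in the same tiles.

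**Figure D3:**
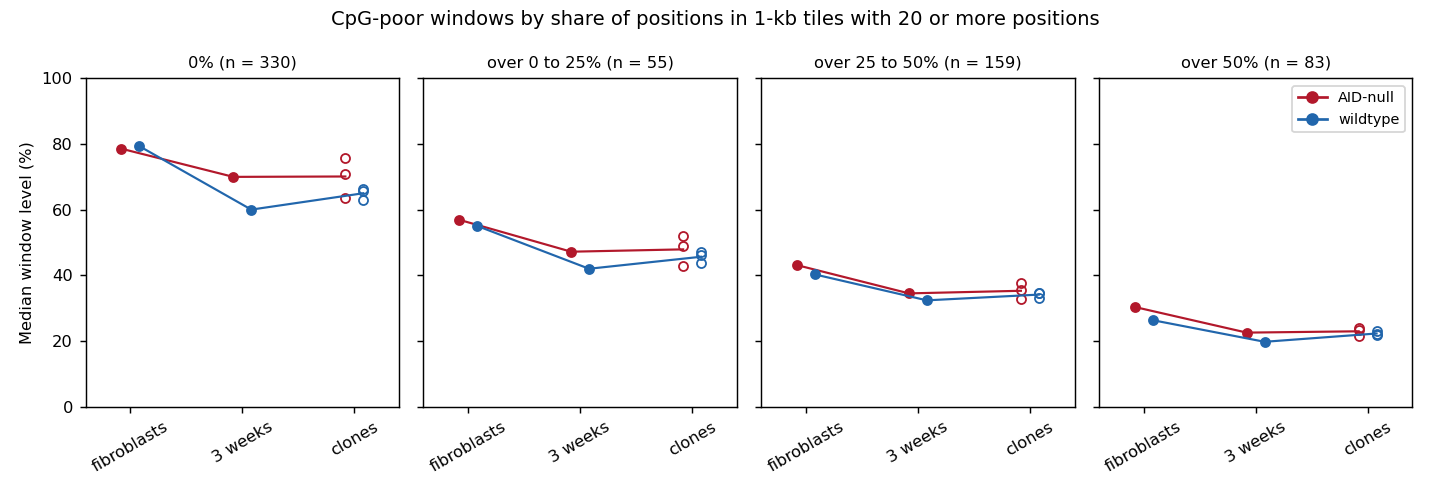
Median methylation level of CpG-poor windows (vertical axis, percent) in fibroblasts, 3-week cultures and clones, in 4 panels by the share of a window's positions in dense 1-kb tiles. Filled points are single libraries, open points are single clones and lines join them through the mean of the 3 clones; in the panel at 0% the 3-week medians are 70.0% in AID-null and 60.0% in wildtype cells, and where the share is over 50% they are 22.6% and 19.8%.

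The windows with the largest negative changes were partly set by single positions. In chr15:65000001-66000000 the level was 23.0% in the AID-null 3-week culture, against 62.4% in AID-null fibroblasts, and 18.3% in the wildtype culture, against 58.0% in wildtype fibroblasts. With positions weighted equally the changes were -4.76 points in AID-null and -8.90 points in wildtype cells. In chr14:81000001-82000000 the change was -30.2 points in the AID-null culture and -34.5 points in the wildtype culture, and -14.4 and -20.0 points in the AID-null and wildtype cells with equal weights. The change in chr3:159000001-160000000 did not rest on the weighting. Its level was 63.4% in the AID-null culture and 47.2% in the wildtype 3-week culture, against 85.5% in AID-null and 86.3% in wildtype fibroblasts, and with equal weights it changed by -21.2 points in AID-null and -35.5 points in wildtype cells.

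Few windows stood higher at 3 weeks. The largest positive change was in chr7:98000001-99000000, at 38.5% in the AID-null 3-week culture against 28.2% in AID-null fibroblasts, and at 39.5% in the wildtype culture against 23.7% in wildtype fibroblasts. With equal weights the change was 3.88 points in AID-null and -0.69 points in wildtype cells. In chr14:109000001-110000000 the level was 49.1% in both 3-week cultures, against 40.7% in AID-null and 41.7% in wildtype fibroblasts, and the change was larger in clones. AID-null clones 1 to 3 stood at 62.6%, 51.3% and 68.0% there and wildtype clones 1 to 3 at 55.2%, 59.3% and 60.9%, so all 6 clones lay above both fibroblast libraries. With equal weights the clone means stayed above the fibroblast libraries, by 14.2 points in AID-null and 9.83 points in wildtype cells.

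Position by position, the share at high levels was smaller and the share at intermediate levels larger at 3 weeks. Of the 68767 positions of CpG-poor windows, 43.5% in AID-null and 45.0% in wildtype fibroblasts were at 80% or above. At 3 weeks the share was 26.3% in the AID-null culture and 9.38% in the wildtype culture. The share of positions between 20% and 80% was 39.5% in the AID-null culture and 56.0% in the wildtype culture, against 21.5% in AID-null and 19.6% in wildtype fibroblasts. The share under 20% was 34.2% in the AID-null culture and 34.7% in the wildtype culture, close to the 35.0% and 35.3% of the AID-null and wildtype fibroblasts. In clones the share at 80% or above was 34.9%, 24.5% and 42.4% in AID-null clones 1 to 3 and 19.1%, 23.7% and 22.3% in wildtype clones 1 to 3.

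Positions that started high can be followed directly. There were 26093 CpG-poor positions at 80% or above in both fibroblast libraries; since they were picked by those values, part of any later fall is built in, and the values are a description. At 3 weeks 54.4% of them were still at 80% or above in the AID-null culture and 20.6% in the wildtype culture. In clones the share was 63.2%, 46.8% and 71.1% for AID-null clones 1 to 3 and 34.8%, 42.4% and 41.0% for wildtype clones 1 to 3, so each AID-null clone lay above each wildtype clone. Few were under 20%. The share was 0.169% in the AID-null culture and 0.709% in the wildtype 3-week culture, 2.11% to 4.37% in AID-null clones and 3.11% to 4.18% in wildtype clones. Of 110019 CpG-dense positions picked the same way, 32.5% were still at 80% or above in the AID-null culture and 6.13% in the wildtype 3-week culture. The share was 40.9%, 30.9% and 49.0% for AID-null clones 1 to 3 and 17.8%, 23.1% and 20.9% for wildtype clones 1 to 3. By this share each AID-null clone thus lay above each wildtype clone in both kinds of window. The mean levels of the CpG-poor positions were 79.2%, 72.7% and 82.5% in AID-null clones 1 to 3 and 69.2%, 71.7% and 72.1% in wildtype clones 1 to 3. Those of the CpG-dense positions were 66.4%, 60.4% and 72.2% in AID-null and 59.2%, 61.4% and 62.2% in wildtype clones, so the clones overlapped there. Under 20% were 5.07% to 12.8% in AID-null and 6.20% to 7.75% in wildtype clones, in each clone more than among its CpG-poor positions.

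To see how much of the contrast between CpG-poor and CpG-dense windows was local, positions were compared at equal tile density, each position counting once. Among positions in tiles of 1 to 4 shared positions, CpG-poor windows were at 75.6% in AID-null and 76.7% in wildtype fibroblasts, and CpG-dense windows at 66.6% and 67.6%. A gap of this sign was present in all 10 libraries. At 3 weeks the means were 69.2% in the AID-null culture and 58.6% in the wildtype culture in CpG-poor windows, and 58.4% and 49.1% in CpG-dense windows. The changes were thus -6.35 points in CpG-poor and -8.13 points in CpG-dense windows of the AID-null culture, and -18.1 and -18.5 points in CpG-poor and CpG-dense windows of the wildtype culture. Sparse tiles of CpG-dense windows thus changed by about as much as those of CpG-poor windows in the wildtype culture. In tiles of 20 to 39 positions the order of the levels turned, with 7.99% in AID-null and 7.71% in wildtype fibroblasts in CpG-poor windows, against 10.7% and 10.7% in CpG-dense windows. Pooled by reads, the order in these tiles did not turn. CpG-poor windows then stood at 60.5% in AID-null and 57.1% in wildtype fibroblasts, against 10.1% and 9.48% in CpG-dense windows.

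The share of the fibroblast level kept at 3 weeks was higher in CpG-poor windows at each sparse density. In tiles of 1 to 4 positions CpG-poor windows kept 91.6% in the AID-null culture and 76.4% in the wildtype culture, and CpG-dense windows 87.8% and 72.6%. In tiles of 10 to 19 positions CpG-poor windows kept 84.7% in the AID-null culture and 73.0% in the wildtype culture, and CpG-dense windows 79.1% and 65.9%. Clones had the same order of levels. In tiles of 1 to 4 positions AID-null clones averaged 72.2% ± 6.45 and wildtype clones 65.8% ± 1.26 in CpG-poor windows (SD, n = 3 each). In CpG-dense windows the AID-null clones averaged 58.2% ± 7.21 and the wildtype clones 54.8% ± 1.25. Each of the 6 clones was higher in CpG-poor than in CpG-dense windows at this density. For whole windows counted by reads the order of the share kept was the reverse in the wildtype culture, with a median of 77.2% in CpG-poor and 82.5% in CpG-dense windows, and the same in the AID-null culture, with 87.1% and 78.7%. With equal weights it was 75.9% in CpG-poor and 70.0% in CpG-dense windows of the wildtype culture.

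**Figure D4:**
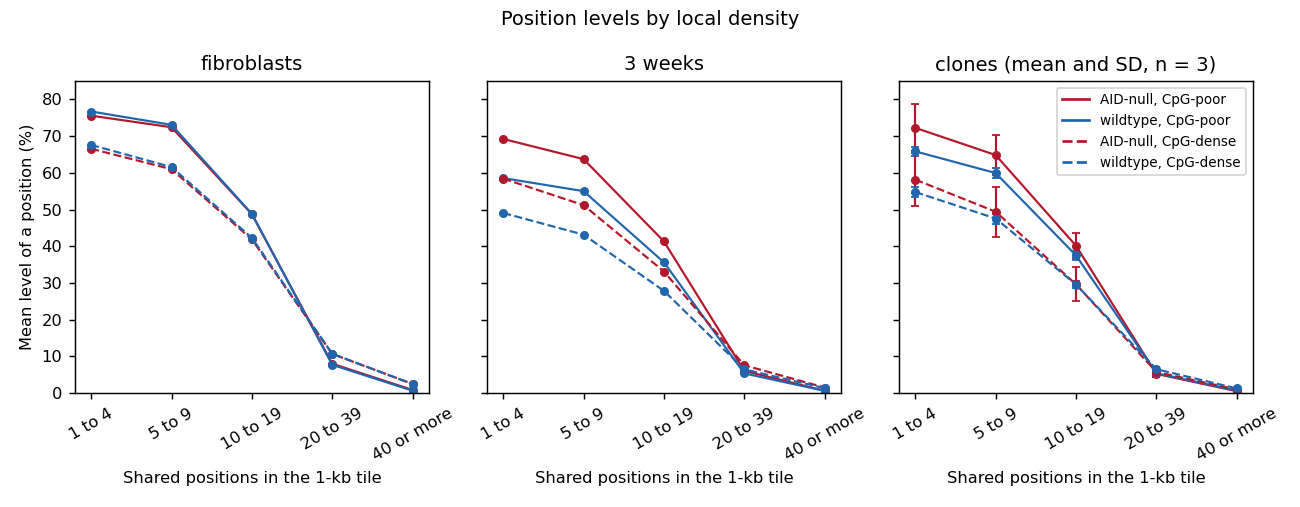
Mean level of positions (vertical axis, percent) by the number of shared positions in their 1-kb tile (horizontal axis), in fibroblasts, 3-week cultures and clones. Solid lines are CpG-poor and dashed lines CpG-dense windows, and bars on clones are the SD of 3 clones; in tiles of 1 to 4 positions CpG-poor windows lie at 58.6% to 76.7% and CpG-dense windows at 49.1% to 67.6%.

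Counted by reads, the 79 CpG-poor and 114 CpG-dense windows at 30% to 40% in fibroblasts had like median changes at 3 weeks. The median change was -6.93 points in CpG-poor and -7.29 points in CpG-dense windows of the AID-null culture. In the wildtype culture it was -6.74 points in CpG-poor and -6.27 points in CpG-dense windows. Among windows at 10% to 20% it was -2.57 and -4.15 points in the AID-null culture and -0.88 and -2.25 points in the wildtype culture. With equal weights the windows at 30% to 40% differed more, at -3.43 points in CpG-poor and -5.64 points in CpG-dense windows of the AID-null culture. In the wildtype culture these values were -8.91 and -10.7 points. In clones the 2 kinds of window at 30% to 40% differed by reads as well. The median change of AID-null clones from fibroblasts was -6.68 points in CpG-poor and -10.3 points in CpG-dense windows, and that of wildtype clones -4.29 and -6.58 points in CpG-poor and CpG-dense windows. With equal weights the change of AID-null clones was -3.04 points in CpG-poor and -6.57 points in CpG-dense windows. That of wildtype clones was then -5.75 and -8.37 points.

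Clones were compared with the 3-week cultures to ask how picked cells differed from cells in bulk. In CpG-poor windows wildtype clones stood above the wildtype culture by a median of 4.18 points, with 487 of 627 windows higher in the clone mean. All 3 wildtype clones were at least 10 points higher in 36 windows and lower in 4, where 1.98% and 0.314% of all 2226 windows were higher and lower. Each wildtype clone had a positive median, at 2.59, 4.68 and 4.72 points for clones 1 to 3. AID-null clones 1 to 3 differed from the AID-null culture by medians of 1.67, -3.71 and 4.79 points, so they did not share a direction. All 3 AID-null clones were at least 10 points higher in 8 windows and lower in 5, where 0.404% and 0.314% of all windows were. In CpG-dense windows every clone had a negative median, from -4.75 to -0.68 points in AID-null and from -1.19 to -0.15 points in wildtype clones. Without wildtype clone 1, 61 windows passed 10 points in either direction for wildtype clones, and for AID-null clones 38 did without clone 2 and 32 without clone 3. With equal weights 6 windows passed for wildtype and 0 for AID-null clones. With positions weighted equally, the wildtype clone mean was above the culture in both kinds of window, by medians of 4.36 points in CpG-poor and 1.87 points in CpG-dense windows.

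Against fibroblasts, clones of both genotypes remained lower. The median change was -6.73 points for the AID-null clone mean and -9.38 points for the wildtype clone mean. All 3 AID-null clones were at least 10 points below their fibroblasts in 100 windows and above in 1, where 12% and 0.0449% of all windows were lower and higher. For wildtype clones the counts were 245 windows lower and 6 higher, where 15.7% and 0.359% of all windows were. AID-null clone 3 stood nearest to its fibroblasts, at a median of -3.39 points, and AID-null clone 2 farthest, at -10.8 points. Wildtype clones 1 to 3 stood at -10.6, -8.55 and -8.87 points. Without AID-null clone 3, windows past 10 points in either direction numbered 179 for the AID-null clones, against 101 with it, and with equal weights 31.

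The largest changes of wildtype clones from fibroblasts stood in windows with the unequal coverage described above. In chr10:28000001-29000000 wildtype clones stood at 67.7%, 71.5% and 71.7% and AID-null clone 3 at 70.3%, against 35.1% and 32.2% in AID-null clones 1 and 2. The fibroblast levels were 37.6% in AID-null and 39.2% in wildtype cells. With high-coverage positions left out, the wildtype clones were at 24.6%, 21.5% and 22.3% and AID-null clones 1 to 3 at 30.1%, 28.9% and 26.2%. In chr14:110000001-111000000 wildtype clones stood at 30.2%, 30.9% and 33.1%, and AID-null clones 1 to 3 at 80.9%, 71.1% and 38.4%. Without high-coverage positions, wildtype clones were at 69.7%, 78.2% and 76.1% and AID-null clones at 83.6%, 75.8% and 87.4%. The same 4 libraries stood apart in chr14:40000001-41000000. There the clone level was 58.0% in AID-null clone 3, 24.4% and 23.3% in AID-null clones 1 and 2 and 52.6% to 53.5% in wildtype clones. The wildtype clone change in these 3 windows depended on the high-coverage positions. In chr10:28000001-29000000 it was 31.1 points with them and -7.80 points without them, so its sign turned. In chr14:40000001-41000000 it was 28.2 points with and -0.02 points without them. In chr14:110000001-111000000 it was -57.6 points with and -13.7 points without them. The largest negative change of AID-null clones was in chr14:81000001-82000000, at 31.5%, 30.7% and 47.1% in clones 1 to 3 against 86.9% in AID-null fibroblasts. It was -50.4 points, and -24.1 points without high-coverage positions. The largest positive one was in chr14:109000001-110000000, described above, at 19.9 points with and without those positions.

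AID-null cells were then compared with wildtype cells at each stage. In fibroblasts CpG-poor windows differed little, by a median of 0.44 points AID-null minus wildtype. Of 627 windows 9 were at least 10 points higher and 2 lower, where 0.494% and 0.18% of all windows were. With equal weights the median turned to -0.60 points and 1 window passed 10 points. Macrophage genes summed to 1065 FPKM in AID-null and 326 FPKM in wildtype fibroblasts, and their part in the difference was not tested. In chr14:53000001-54000000 the level was 75.9% in AID-null and 89.5% in wildtype fibroblasts, and the difference was -6.62 points with equal weights. In chr4:64000001-65000000 it was 41.9% in AID-null and 27.6% in wildtype fibroblasts, and the difference was -0.40 points with equal weights.

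At 3 weeks CpG-poor windows were more methylated in the AID-null culture. The median difference was 6.58 points and 578 of 627 windows were above 0. At least 10 points higher were 155 windows, and 0 were that much lower, where 7.37% and 0% of all windows were higher and lower. Of the 155, 151 had no dense tile. In the 330 windows without a dense tile the median difference was 9.71 points, against 1.83 points in the 83 windows with over 50% of positions in dense tiles. In CpG-dense windows it was 1.43 points. At equal tile density, in tiles of 1 to 4 positions, the level was 69.2% in the AID-null culture and 58.6% in the wildtype culture in CpG-poor windows and 58.4% in the AID-null culture and 49.1% in the wildtype culture in CpG-dense windows. With equal weights the CpG-poor median was 7.44 points and the CpG-dense median 3.74 points.

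The windows at the top of that comparison were higher in AID-null in both weightings. In chr11:42000001-43000000 the level was 68.6% in the AID-null culture and 51.7% in the wildtype culture, and the fibroblasts stood at 73.7% and 74.9%. With equal weights the 3-week difference was 10.5 points. In chr3:76000001-77000000 it was 80.4% in the AID-null culture and 63.7% in the wildtype culture, with fibroblasts at 82.6% in AID-null and 85.2% in wildtype cells, and the difference was 15.5 points with equal weights. At the other end, chr8:101000001-102000000 was at 29.5% in the AID-null culture and 36.7% in the wildtype culture, and its difference of -7.23 points was 5.20 points with equal weights. In chr6:110000001-111000000 the level was 22.4% in the AID-null culture and 28.8% in the wildtype culture, and with equal weights the difference was 5.90 points. Both of these lower values thus rested on the weighting.

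Other measures of the cultures differed in the same comparison. The 10 fibroblast marker genes summed to 19625 FPKM in the AID-null culture and 4841 FPKM in the wildtype 3-week culture, all 10 being above 1 FPKM in both, against 86601 FPKM in AID-null and 76060 FPKM in wildtype fibroblasts. The 7 macrophage genes found summed to 325 FPKM in the AID-null culture, where all 7 were above 1 FPKM. They summed to 117 FPKM in the wildtype culture, where 3 were above 1 FPKM. Ptprc, the pan-leukocyte antigen CD45, Tyrobp, C1qa and C1qc were listed at 0 in the wildtype culture. Cd68 made up 193 FPKM of the AID-null and 112 FPKM of the wildtype sum. Fcer1g and Csf1r were at 2.08 and 2.42 FPKM in the wildtype culture. In fibroblasts the macrophage sums were 1065 FPKM in AID-null and 326 FPKM in wildtype cells, with all 7 genes above 1 FPKM in both. The sums of other lists were higher in the wildtype culture. The 6 keratinocyte genes summed to 2.63 FPKM in the AID-null culture, where 1 was above 1 FPKM, and to 151 FPKM in the wildtype culture, where 5 were and where Krt6b, a keratin, made up 96.2 FPKM. The 6 skeletal muscle genes summed to 136 FPKM in the AID-null culture and 206 FPKM in the wildtype culture, with 3 above 1 FPKM in each. Mylpf made up 95.4 FPKM of the AID-null and 188 FPKM of the wildtype sum. Des went the other way, at 39.4 FPKM in the AID-null culture and 14.7 FPKM in the wildtype culture. In fibroblasts the keratinocyte sums were 12.6 FPKM in AID-null and 14.5 FPKM in wildtype cells, and the muscle sums 25.3 FPKM in AID-null and 8.50 FPKM in wildtype cells. In bulk cells, fewer cells of a type and less RNA per cell cannot be told apart. The part of such cells in the methylation of the windows was not tested.

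The genes of the methylation machinery were read in the same RNA. Dnmt1 stood at 138 FPKM in the AID-null culture and 214 FPKM in the wildtype 3-week culture, against 57.1 FPKM in AID-null and 41.6 FPKM in wildtype fibroblasts. Uhrf1, which brings Dnmt1 to newly replicated DNA, stood at 189 FPKM in the AID-null culture and 330 FPKM in the wildtype culture, against 28.1 FPKM and 16.8 FPKM in AID-null and wildtype fibroblasts. The de novo enzyme gene Dnmt3b was at 193 FPKM in the AID-null culture and 389 FPKM in the wildtype culture, and at 4.78 FPKM and 3.20 FPKM in AID-null and wildtype fibroblasts. The level of its cofactor Dnmt3l was 692 FPKM in the AID-null culture and 785 FPKM in the wildtype culture. Tet1 stood at 127 FPKM in the AID-null culture and 169 FPKM in the wildtype culture, while Tet3 was at 11.4 and 17.4 FPKM in these cultures, against 33.0 FPKM in AID-null and 27.1 FPKM in wildtype fibroblasts. These genes were each read in 1 library per group, so their differences have no test.

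Only the clones allow a replicated comparison of the genotypes. CpG-poor windows were higher in AID-null clones 1 and 3 than in the wildtype clones, and AID-null clone 2 was not. The median difference of the clone means was 3.28 points. Taken singly, AID-null clones 1 to 3 lay 4.05, -0.98 and 7.32 points from the wildtype clone mean at the median window. The median level was 52.8% ± 4.53 in AID-null and 50.5% ± 0.625 in wildtype clones (SD, n = 3 each), a difference smaller than the spread of the AID-null clones. In CpG-dense windows the medians were 19.2% ± 2.23 in AID-null and 20.6% ± 0.585 in wildtype clones.

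All 3 AID-null clones lay above all 3 wildtype clones in 126 CpG-poor windows and below them in 8, or 20.1% and 1.28% of them, where 11.4% and 2.70% of all 2226 windows were above and below. By size, 1.08% of all windows had a clone mean at least 10 points higher in AID-null and 0.314% at least 10 points lower, and in CpG-poor windows these were 23 and 5 of 627. With equal weights 4 CpG-poor windows passed 10 points in either direction, without AID-null clone 1 18 did, and without AID-null clone 2 95 did. AID-null clone 3 alone was above all 3 wildtype clones in 514 of 627 windows. Without it the median difference was 1.44 points, and without AID-null clone 2 it was 5.71 points. Set alone against the wildtype clones, with which it shares the high coverage of the 84 positions, AID-null clone 3 differed by a median of 7.32 points.

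The quasi-binomial model over 2226 windows, with Benjamini-Hochberg adjustment, called 13 CpG-poor windows at an adjusted p under 0.05. All 13 were higher in AID-null clones, where 1.03% of all windows were called higher and 0.0449% lower. Their differences ran from 4.29 to 21.6 points with a median of 11.0. Because the 13 were picked by these same clones, a lack of overlap is partly built in. In 12 of the 13 the clones did not overlap. The exception was chr12:19000001-20000000, where AID-null clones 1 to 3 stood at 40.2%, 35.8% and 23.3% and wildtype clones at 19.8%, 22.7% and 23.9%. At 3 weeks all 13 windows were higher in the AID-null culture, by 2.67 to 13.9 points, as were 92.2% of CpG-poor and 87.5% of all 2226 windows. In fibroblasts 6 of 13 were higher in AID-null, where 56.5% of CpG-poor and 83.8% of all windows were. At an unadjusted p under 0.05 stood 154 CpG-poor windows, and 284 of all 2226 windows. The number of CpG-poor windows called was 251 without AID-null clone 2, 89 without AID-null clone 3 (49 of them higher and 40 lower) and 6 without wildtype clone 1. Over all 2226 windows these numbers were 320, 628 (99 higher and 529 lower) and 9 in the same order.

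**Figure D5:**
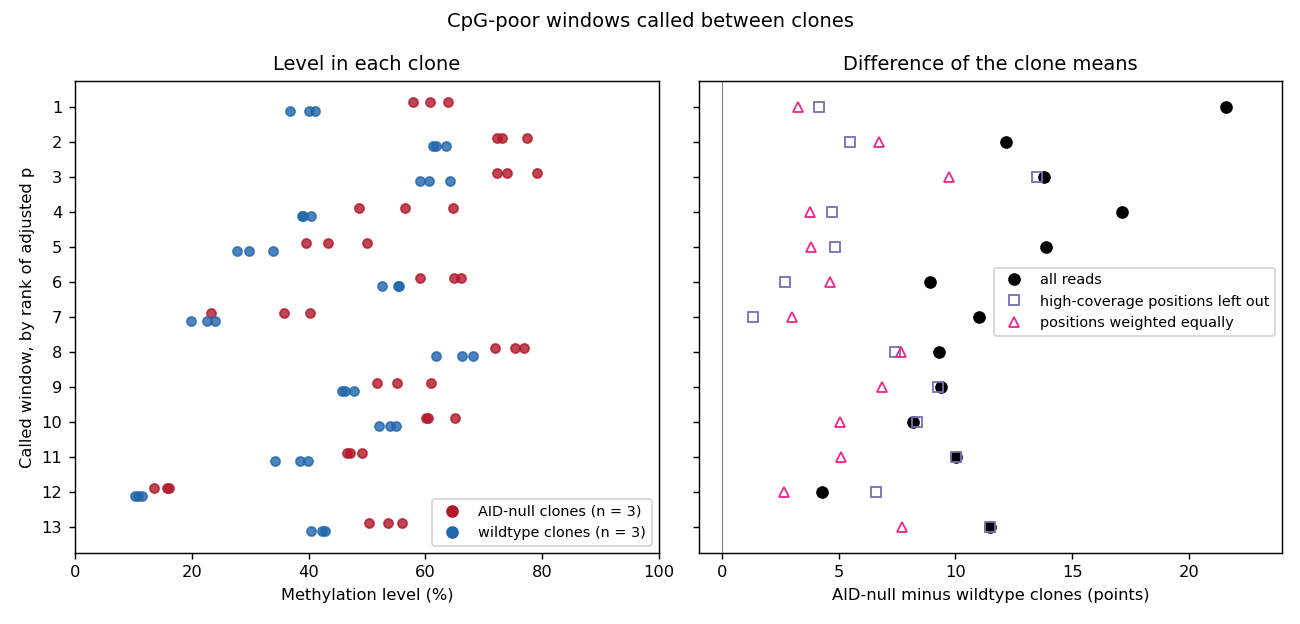
The 13 CpG-poor windows called between clones, from the smallest adjusted p at the top. The left panel gives the level (horizontal axis, percent) in each AID-null and wildtype clone, and the right panel the difference of the clone means in points under 3 ways of counting, from 4.29 to 21.6 points with all reads and from 2.64 to 9.71 points with equal weights.

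The call with the smallest adjusted p rested on high-coverage positions. In chr6:59000001-60000000 AID-null clones 1 to 3 stood at 60.7%, 57.9% and 63.9% and wildtype clones at 40.0%, 36.8% and 41.0%. The difference was 21.6 points (adjusted p = 4.41e-07 by the quasi-binomial model, higher in 3 of 3 AID-null clones). Without high-coverage positions it was 4.18 points (adjusted p = 0.395), and with equal weights 3.28 points. In chr2:82000001-83000000 AID-null clones stood at 77.5%, 72.3% and 73.2% and wildtype clones at 61.9%, 61.2% and 63.4%, a difference of 12.1 points (adjusted p = 0.00747). Without high-coverage positions it was 5.47 points (adjusted p = 0.319). The difference in chr18:18000001-19000000 was 17.1 points, and 4.71 points without them (adjusted p = 0.00818 with and 0.647 without).

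Other calls did not rest on those positions. In chr1:197000001-198000000 AID-null clones 1 to 3 stood at 79.1%, 73.9% and 72.2% and wildtype clones at 60.6%, 59.1% and 64.2%, with no overlap. The difference was 13.8 points (adjusted p = 0.00803 by the quasi-binomial model), 13.5 points without high-coverage positions (adjusted p = 0.00313) and 9.71 points with equal weights. Chromosome 1 took 6.62% of the autosomal coverage in AID-null clone 1 and 5.37% to 5.64% in the other libraries. Before reprogramming the window was at 82.4% in AID-null and 84.0% in wildtype fibroblasts, and at 3 weeks at 73.0% in the AID-null culture and 64.1% in the wildtype culture. In chr13:62000001-63000000 the clones stood at 55.1%, 51.7% and 61.0% in AID-null and 45.8%, 46.2% and 47.7% in wildtype cells, a difference of 9.38 points with and 9.26 points without high-coverage positions. In all, 5 of the 13 windows were also among the 15 called without high-coverage positions, these 2 and chr1:160000001-161000000, chr5:7000001-8000000 and chr12:22000001-23000000. With equal weights all 13 differences were positive, at 2.64 to 9.71 points, and in 8 of them the clones did not overlap. Their median was then 5.07 points, against 4.15 points over all 627 CpG-poor windows. A positive sign alone thus did not set these 13 windows apart. They were picked by the same clones, and the share of all CpG-poor windows without overlap under equal weights is not given here.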

How the data were processed

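RRBS was read in 10 and RNA in 4 libraries, grouped by sample titles. The submitters' processing notes name mm9 and the tools TopHat, Cufflinks, Bismark and methylKit; versions, trimming and annotation: not given in the sources used here. Each CpG cytosine in the deposited RRBS tables has, per the file headers, a coverage, which is a read count, and the percent of its reads seen as C and as T. All have a coverage of at least 10. The deposited RNA files hold FPKM, normalised per gene length and library by the authors.

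Reads seen as C and as T were computed from coverage times percent and summed over positions listed in all 10 libraries within autosomal windows of 1 Mb. Windows were tested between clones by a two-sided quasi-binomial model, its dispersion moderated with limma 3.58.1 in R 4.3.3 (trend, floor of 1), with Benjamini-Hochberg adjustment over 2226 windows and a threshold of 0.05. On simulated data for this comparison, over 2226 windows, 99% of 10-point and 100% of 20-point differences were recovered, with 6 of 205 calls false and 0 calls without differences; the simulated clones had no shift of a whole clone. Elsewhere a difference of 10 points was counted, in all 3 clones where clones met 1 library and in the mean between clones. High-coverage positions were those above the 99.9th percentile of coverage in any library. edgeR 4.0.16 was an alternative.

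Members, lists and rules, among them the rule for named windows (the 2 highest and 2 lowest per comparison, the 3 smallest adjusted p, the 2 highest and 2 lowest fibroblast levels and the longest run), were chosen with earlier results of these data known. Some of the named windows are not described singly. No sequence is shown, and window genes were not analysed here, because no annotation of mm9 was used. The RNA of the gene named by the null label is not reported here.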

Additional observations from a re-analysis of the deposited data

Results flagged for a closer look

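In 2 of the named CpG-poor windows all 3 AID-null clones lay below their fibroblasts and all 3 wildtype clones above theirs. The difference of these changes was not tested. Both changes start from the fibroblast libraries, which already stood apart. AID-null minus wildtype was 8.26 points in chr8:101000001-102000000 and 11.8 points in chr16:81000001-82000000. The window on chromosome 16 was named partly for that fibroblast difference, so its opposite moves are partly built in. In chr8:101000001-102000000 AID-null clones 1 to 3 stood at 23.3%, 18.9% and 23.6%, against 30.4% in AID-null fibroblasts, and wildtype clones at 23.1%, 29.1% and 24.6%, against 22.1% in wildtype fibroblasts. The AID-null change minus the wildtype change was -11.9 points, and -0.42 points with positions weighted equally. In chr16:81000001-82000000 AID-null clones stood at 12.2%, 16.0% and 19.2%, against 30.5% in AID-null fibroblasts, and wildtype clones at 21.9%, 21.8% and 19.0%, against 18.7% in wildtype fibroblasts. The difference of the changes was -16.9 points, and 1.43 points with equal weights. Over all 627 windows, AID-null clones were all higher and wildtype clones all lower than their fibroblasts in 6, and the reverse held in 12; 1 of the 6 kept its directions with equal weights.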

How the results depend on the processing

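Each summary over CpG-poor windows was recomputed with 1 choice changed at a time; 109 alternative values moved by less than the spread between clones or, for single libraries, the counting interval (medians) or stayed within 1.5 times (counts), and 70 did not. Causes were not tested. Among the medians 2 changed sign. That of AID-null clones minus the AID-null culture, 0.78 points, was -1.14 without AID-null clone 3, 3.38 without clone 2, 0.31 without clone 1 and 0.18 with a coverage of at least 20, all within the spread between clones. That of AID-null minus wildtype fibroblasts, 0.44 points, became -0.60 with positions weighted equally; it was 0.54 with a coverage of at least 20, 0.53 without high-coverage positions, 0.30 with windows shifted by 500 kb, 1.58 with windows of 100 to 200 positions and 0.62 without chromosome 1. The median change of the AID-null culture from fibroblasts was -5.51 with equal weights, -7.24 with a coverage of at least 20, -7.39 without high-coverage positions and -7.20 with shifted windows, and that of the wildtype culture -14.1, -14.3, -13.8 and -14.2 in the same order, -9.87 with windows of 100 to 200 positions and -14.6 without chromosome 1. The AID-null minus wildtype median at 3 weeks was 7.44, 6.71, 6.46 and 6.21 in that order and 3.93 with windows of 100 to 200 positions. The median of AID-null clones against fibroblasts, -6.73, was -4.05 with equal weights, and that between genotypes in clones, 3.28, was 1.58 with windows of 100 to 200 positions. With such windows, wildtype clones differed from fibroblasts by -6.67 and from the 3-week culture by 2.75.

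Counts past 10 points moved more. With equal weights they were 101 (AID-null culture against fibroblasts), 31 (AID-null clones against fibroblasts), 0 and 6 (AID-null and wildtype clones against cultures) and 1 and 4 (AID-null against wildtype fibroblasts and clones); the last was 14 without high-coverage positions. With windows of 100 to 200 positions they were 110 and 160 for the AID-null and wildtype cultures against fibroblasts, 57 and 91 for the AID-null and wildtype clones against fibroblasts, 22 for wildtype clones against the culture, and 6, 28 and 7 between genotypes in fibroblasts, cultures and clones. At 5 points the counts were 445 (AID-null culture against fibroblasts), 240 and 404 (AID-null and wildtype clones against fibroblasts), 79 and 191 (AID-null and wildtype clones against cultures) and 99, 377 and 229 between genotypes in fibroblasts, cultures and clones; at 15 points they were 71, 44, 120, 3, 6, 0, 9 and 6 in the same order. Leaving out 1 clone gave 109 to 179 windows for AID-null clones against fibroblasts, 13 to 38 for AID-null and 48 to 61 for wildtype clones against cultures, and 18 to 95 between genotypes in clones.

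The 13 windows called between clones became 32 (19 higher in AID-null) by limma on percent methylated, 45 (37 higher) by limma on median-centred log2 ratios, 17 (15 higher) by edgeR, 7 with shifted windows, 7 with all windows tested, and 6 to 251 on leaving out 1 clone. For AID-null clone 3 against the wildtype clones, a comparison chosen after seeing the data in which the lone clone is assumed to vary like the others, it was 353, and the median difference 7.32. Shared with the 13 were 8 of the 32, 11 of the 45 and 10 of the 17. With the clone number as a replicate block 32 were called, 28 higher and 4 lower, with all 13 among them, and 61 over windows of every class. Same-numbered clones deviated together at r = 0.03, -0.11 and 0.19, so the numbers do not pair the clones. Not every clone correlated best with its own number. Counting error, with reads taken as independent, reaches about 1.57 points in a single window, and the weighting of positions moved some windows by far more. Single libraries of fibroblasts and cultures leave those comparisons without a measure of spread.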

Other observations

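The chromosomes moved alike. The median change of CpG-poor windows at 3 weeks was between -10.6 points (chromosome 18) and -5.20 points (chromosome 9) in the AID-null culture, and between -19.6 points (chromosome 15) and -12.4 points (chromosome 11) in the wildtype culture. The median AID-null minus wildtype difference at 3 weeks was positive on all 19 autosomes, from 3.93 points on chromosome 12 to 8.77 points on chromosome 15.

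The most deeply read CpG-poor window was chr2:98000001-99000000, where a single position had 771696 to 1937232 reads. By all reads its level was 90.6% in AID-null and 91.2% in wildtype fibroblasts, 85.6% in the AID-null culture and 76.7% in the wildtype 3-week culture, 89.9%, 87.0% and 91.3% in AID-null clones 1 to 3 and 81.8%, 82.6% and 83.1% in wildtype clones 1 to 3. With its 147 positions weighted equally, it was 78.2% in AID-null and 80.3% in wildtype fibroblasts, 70.0% in the AID-null culture and 63.3% in the wildtype 3-week culture, 62.9% to 78.1% in AID-null clones and 65.7% to 68.7% in wildtype clones, so the clones overlapped in this weighting and not in the other.

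Windows with 201 to 1000 shared positions, of which there were 1210, lay between the other classes in number of positions but near the CpG-dense windows in level. Their fibroblast medians were 31.3% in AID-null and 28.1% in wildtype cells.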
